A study of Mus musculus with 6 samples.

Results

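Cox7a2l, Cox7a2, Cox7a1, Higd1a and Higd2a are 5 genes whose products belong to, or help to assemble, the respiratory chain of mitochondria. They were chosen by name, and all 5 are present among the 53800 genes of the deposited count table. In the mouse assembly GRCm38, Cox7a2l lies at chr17:83501919-83514333 on the minus strand, Cox7a2 at chr9:79755361-79759878 (minus), Cox7a1 at chr7:30184144-30186078 (plus), Higd1a at chr9:121848563-121858362 (minus) and Higd2a at chr13:54590207-54591158 (plus). All are protein-coding. The choice was made with the fall of Cox7a2l in these libraries already known. Levels and fold changes of the 5 genes are therefore given as a description, without a test.

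Complexes I, III and IV of the inner mitochondrial membrane can bind each other to form supercomplexes. COX7A2 and COX7A1 are alternative forms of a small subunit of complex IV (cytochrome c oxidase), the second typical of heart and skeletal muscle. COX7A2L, also called SCAF1, resembles them but acts as a link that attaches complex IV to complex III. HIGD1A and HIGD2A carry a hypoxia-inducible gene domain. They are mammalian relatives of a yeast supercomplex factor and take part in the assembly and regulation of complex IV.

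RNA sequencing of polyadenylated transcripts was done on NCTC 1469, a cell line from mouse liver that the labels call wild-type hepatocytes. Cells were kept for 6 days on a random positioning machine, which turns a culture so that gravity has no constant direction (simulated microgravity, 3 libraries), or at normal gravity (3 libraries). Both groups grew in the same medium with 10% fetal bovine serum, and none of the samples carries a label of melatonin, which the series title names. The labels do not say whether replicates were separate cultures, so the spread between them may be technical. Count columns bear the letters R and C, read here as random positioning machine and control, and every direction rests on that reading.

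Libraries held 30474792 to 34318208 counts in simulated microgravity and 31406875 to 32797684 at normal gravity. Normal gravity replicate 1 stood apart: it correlated with the other 2 libraries of its group at r = 0.936 (log2 CPM across 14509 genes), whereas those 2 correlated with each other at 0.985. With the simulated microgravity libraries those 2 correlated at 0.964 to 0.970. Replicate 1 did so at 0.943 to 0.946, slightly higher than with its own group. The main results are therefore also given without replicate 1. Hepatocyte markers were nearly absent, with 7 of 9 at 0 counts in every library (among them Alb, Apob and Hnf4a) and at most 18 counts over all libraries for the other 2. The label of hepatocytes was thus not borne out by these markers. All 10 macrophage markers had counts, Csf1r at 2153 to 2552 CPM and Mrc1 at only 7 to 12 counts per library. Their summed level was 10208 to 11789 CPM in simulated microgravity and 6119 to 10127 CPM at normal gravity. Of this sum Lyz2 held 3543 to 4673 CPM in simulated microgravity and 3992, 944 and 993 CPM in normal gravity replicates 1, 2 and 3. Of the 9 tested, 0 passed in edgeR and in limma-voom and 3 were higher in DESeq2. In edgeR 4 were higher at an unadjusted p under 0.05, beside 2325 of all 14509 genes in either direction. Leaving out normal gravity replicate 1, 7 of 10 tested were higher and 0 lower, where 30.8% of all genes passed (15.7% higher and 15.1% lower). Among them was Marco, a scavenger receptor gene, at 673 ± 45.3 CPM in simulated microgravity and 110.4 ± 99.4 CPM at normal gravity (log2 fold change 2.61, adjusted p = 0.105). That library changed the call of Marco: without it the normal gravity mean was 53.0 CPM and the log2 fold change 3.67 (adjusted p = 2.98e-05). Of 4 tested endothelial markers 1 passed, Vwf at a log2 fold change of 1.62 (adjusted p = 0.00886 in edgeR). Kdr had 2.28 (adjusted p = 0.247), Pecam1 -0.45 (adjusted p = 0.711) and Cdh5 -1.04 (adjusted p = 0.694). Levels of Kdr and Cdh5 were near the floor, at most 0.765 and 0.502 CPM in any library. Tek and Stab2 had 0 counts. With all libraries 1.52% of all genes passed (1.16% higher). Of 3 tested fibroblast markers 1 passed, Pdgfrb at 1.36 (adjusted p = 0.0396), while Pdgfra had 0.39 and Col1a1 -0.33. Lum had 0 counts, and Col1a2, Col3a1, Dcn and Thy1 did not reach the count filter. Both calls were also made without normal gravity replicate 1, for Vwf at 1.57 (adjusted p = 0.00098) and for Pdgfrb at 1.38 (adjusted p = 0.00452). The part of these markers in the results below was not tested. In bulk RNA, fewer cells of a type and less RNA per cell cannot be told apart.

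Cox7a2l was lower in simulated microgravity. It had 25.0, 20.0 and 25.9 CPM (counts relative to the library total, scaled by TMM) in the 3 simulated microgravity libraries, against 215.9, 105.6 and 105.7 CPM in the normal gravity libraries. The groups did not overlap, the low values lay close together, and normal gravity replicate 1 was far above the rest of its group. Means were 23.6 ± 3.19 CPM in simulated microgravity and 142.4 ± 63.7 CPM at normal gravity (SD, n = 3 each), and the log2 fold change was -2.59 (SE 0.33). Without normal gravity replicate 1 it was -2.16 (SE 0.11), and the normal gravity mean was 4.47 times that of simulated microgravity. A log2 fold change this low or lower was found for 21 of 14509 tested genes (0.145%). Of the 5 genes, 1 had groups without overlap; over all tested genes it was 27.3%, with 14.4% higher and 12.9% lower in simulated microgravity. Since Cox7a2l was chosen for its fall, nothing is read from these shares. Raw counts behind these values were 605 to 849 reads in simulated microgravity and 3415 to 6880 at normal gravity.

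**Figure D1:**
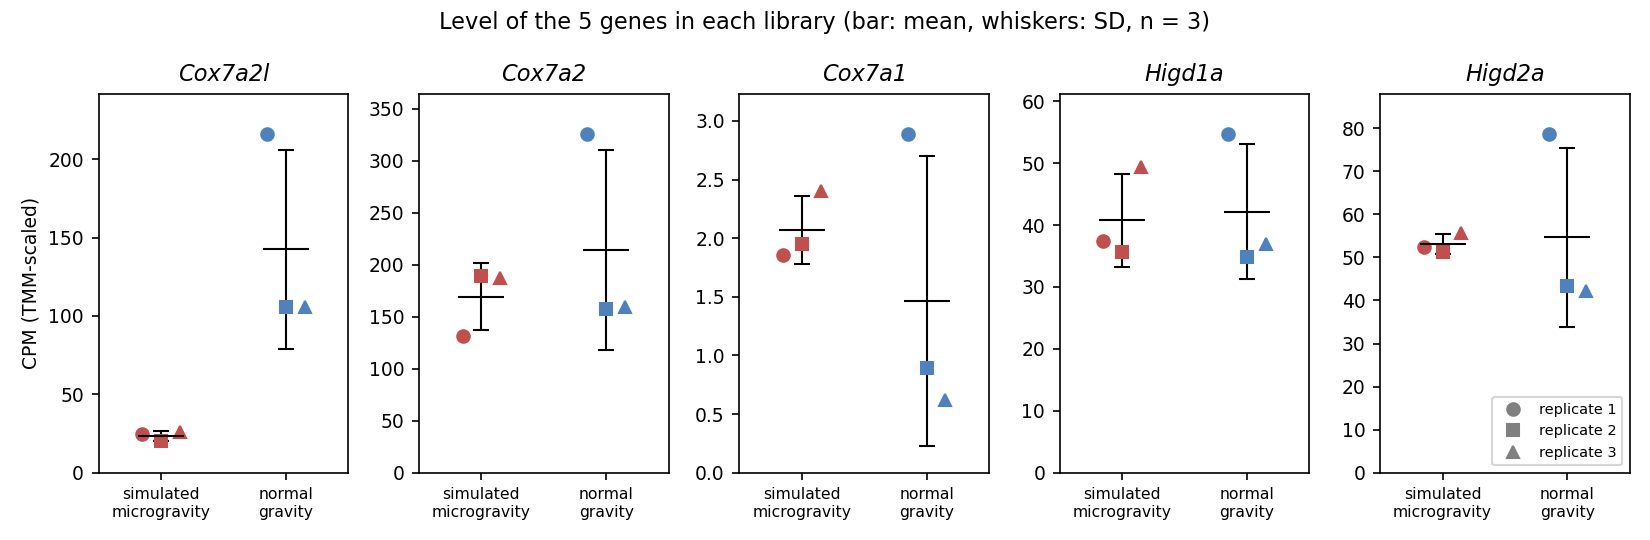
Level of each of the 5 genes (CPM scaled by TMM, linear axes from 0) in 3 simulated microgravity libraries (red, left) and 3 normal gravity libraries (blue, right). Symbols mark replicates, bars the mean and whiskers the SD. Only for Cox7a2l do all simulated microgravity values lie below all normal gravity values, and normal gravity replicate 1 is the highest library for every gene.

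Cox7a2, the paralog found in most tissues, had 131.7, 188.6 and 187.5 CPM in simulated microgravity, against 325.4, 157.6 and 159.7 CPM at normal gravity. The groups overlapped, with the highest value again in normal gravity replicate 1. Its log2 fold change was -0.34 (SE 0.32) with all libraries and 0.10 (SE 0.16) without that replicate. Its direction therefore depended on 1 library, and neither value was much larger than its SE.

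Cox7a1, the muscle form, was the least abundant of the 5, with 59 to 78 reads per library in simulated microgravity and 20 to 92 at normal gravity. Its level was 1.85, 1.95 and 2.40 CPM in simulated microgravity, against 2.89, 0.891 and 0.619 CPM at normal gravity. The groups overlapped only through normal gravity replicate 1. The log2 fold change was 0.50 (SE 0.58), and 1.45 (SE 0.28) without that replicate, where 29.3% of 14809 genes had groups that did not overlap with simulated microgravity on top. The SE was wider with normal gravity replicate 1 than without it. What part the low read numbers had in it was not tested. Cox6a2 and Cox8b, the muscle forms of other complex IV subunits, did not reach the count filter. Of 8 striated muscle markers 0 reached it, with at most 30 counts each over all libraries. Among them, 3 were at 0 counts (Myh6, Myh7 and Myh4).

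Setting the paralogs against each other inside a library removes the scaling between libraries. The ratio of Cox7a2l to Cox7a2 in counts per kilobase was 0.109, 0.0609 and 0.0794 in simulated microgravity, against 0.381, 0.385 and 0.380 at normal gravity. All 3 normal gravity libraries thus had nearly the same ratio, including replicate 1, in which both genes were high. Of all Cox7a counts per kilobase, Cox7a2l made up 7.52% ± 2.01 in simulated microgravity and 27.5% ± 0.147 at normal gravity (SD, n = 3 each). Cox7a2 made up 90.9% ± 2.20 in simulated microgravity and 71.9% ± 0.228 at normal gravity. The share of Cox7a1 was 1.31% to 1.70% in simulated microgravity and 0.380% to 0.865% at normal gravity, without overlap, unlike its CPM. Since the 3 shares add up to the whole, the lower share of Cox7a2l by itself raises those of Cox7a2 and Cox7a1. Normal gravity replicate 1 had the highest CPM of Cox7a1, and also the highest sum of the 3 genes (544 CPM). The level of the 3 genes together was 552 ± 91.0 TPM (a level per gene length, relative to the library's sum) in simulated microgravity and 856 ± 247 TPM at normal gravity.

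**Figure D2:**
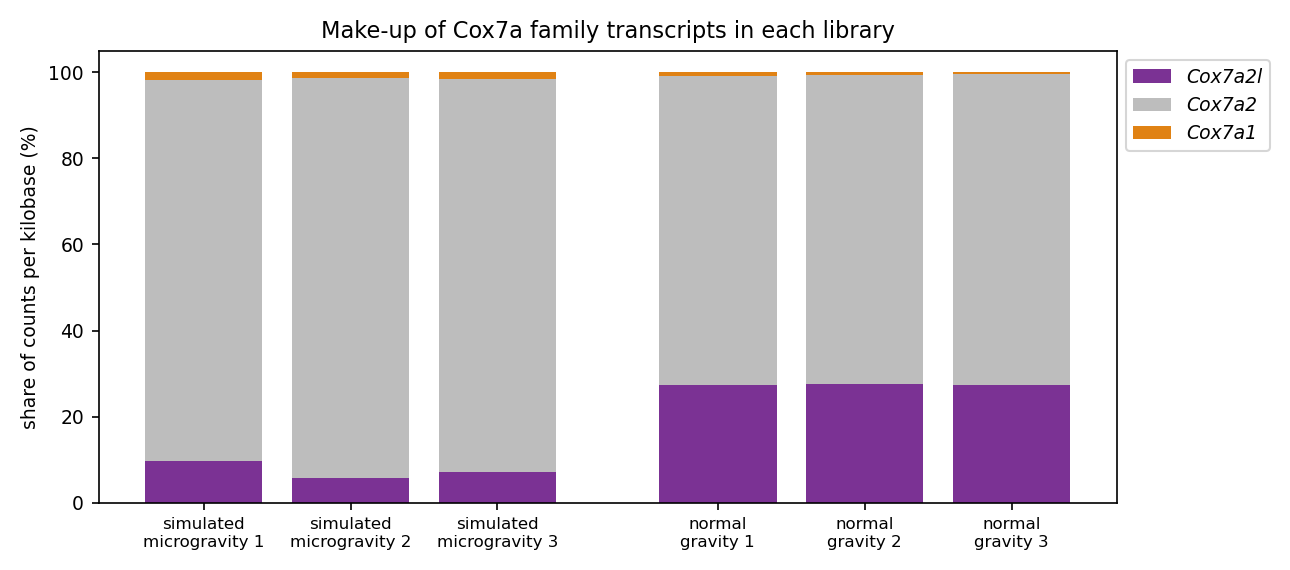
Share of Cox7a2l, Cox7a2 and Cox7a1 in their summed counts per kilobase (%, stacked to 100) in each library, simulated microgravity left and normal gravity right. Cox7a2l takes 5.67% to 9.66% in simulated microgravity and 27.4% to 27.6% at normal gravity.

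Reads of Cox7a2l can be confused with those of a copy elsewhere in the genome. Gm6969, a processed pseudogene at chr12:24638669-24639010 (minus strand), holds an intronless version of the Cox7a2l coding sequence. In the GENCODE M21 transcripts, 203 of its 293 different stretches of 50 bases also occur in Cox7a2l, which is 13.8% of the 1468 stretches of Cox7a2l. No 50-base stretch was shared between any pair of the 5 genes. Against the 336 coding bases of Cox7a2l, Gm6969 had 334 identical bases, 2 mismatches and 6 further bases that Cox7a2l lacks, and its reading frame ran open over all 342 bases. The windows around those 6 bases are shown because they hold the longest difference between the reference forms of the gene and its copy. Capitals mark bases that differ between them in this alignment. The Cox7a2l window is spliced, from chr17:83504100-83504132 (exon 2) and chr17:83502681-83502737 (exon 3), and the Gm6969 window is chr12:24638747-24638842, both on the minus strand of GRCm38.
Cox7a2l: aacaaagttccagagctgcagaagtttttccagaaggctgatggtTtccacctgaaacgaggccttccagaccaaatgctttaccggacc
Gm6969: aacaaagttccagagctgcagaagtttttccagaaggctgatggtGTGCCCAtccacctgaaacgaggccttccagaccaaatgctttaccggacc
As background, mouse strains carry a longer or a shorter form of Cox7a2l that differ by a short in-frame deletion, and the C57BL/6J strain of the reference assembly has the shorter form. Which form NCTC 1469 carries, and how reads with several matches were counted, is not given in the sources used here.

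Gm6969 did not pass the test with all libraries. It had 45.9, 56.2 and 52.4 CPM in simulated microgravity, against 63.7, 42.3 and 36.9 CPM at normal gravity. The groups overlapped, with the highest and the lowest values both at normal gravity. In edgeR the log2 fold change of the copy was 0.11 (SE 0.22) at an adjusted p of 0.861. Without normal gravity replicate 1 it was 0.38 (SE 0.11) at an adjusted p of 0.0409. Per kilobase, Gm6969 stood at 6.17 to 9.42 times Cox7a2l in simulated microgravity and at 0.990 to 1.34 times at normal gravity. With the reads of gene and copy added, the level was 70.9, 76.2 and 78.3 CPM in simulated microgravity, against 279.7, 147.9 and 142.6 CPM at normal gravity. The summed groups did not overlap either, and the log2 ratio of their means was -1.34, or -0.95 without normal gravity replicate 1. How far the authors' counting moved reads between both loci was not tested.

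**Figure D3:**
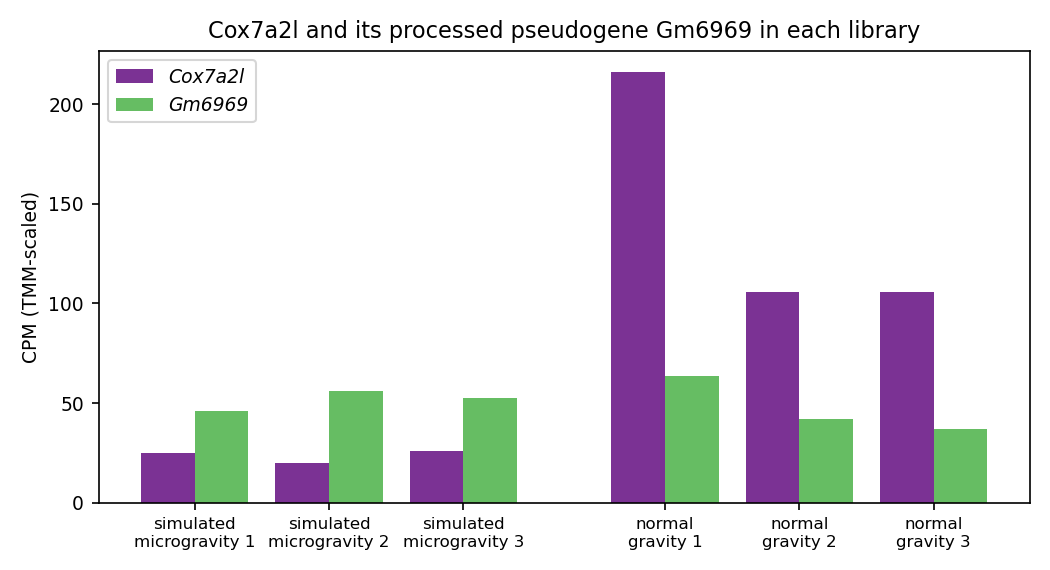
Level of Cox7a2l (purple) and of its processed pseudogene Gm6969 (green) in each library (CPM scaled by TMM, bars from 0), simulated microgravity left and normal gravity right. Gm6969 lies above Cox7a2l in all 3 simulated microgravity libraries and below it in all 3 normal gravity libraries, while its own level stays between 36.9 and 63.7 CPM.

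Higd1a, whose product sits in the inner membrane and is induced under low oxygen, had 37.4, 35.6 and 49.4 CPM in simulated microgravity, against 54.7, 34.9 and 36.9 CPM at normal gravity. The groups overlapped over most of their range. The log2 fold change was -0.05 (SE 0.22), and 0.19 (SE 0.15) without normal gravity replicate 1. A pair of processed pseudogenes shares 50-base stretches with Higd1a; Gm14925 had no counts and Gm9790 had 10 to 30 per library, against 1078 to 1742 for Higd1a. The antisense gene Gm47112 overlaps its start, with at most 0.433 CPM; whether counting used strand is not given in the sources used here.

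Higd2a, which promotes assembly of complex IV and its entry into supercomplexes, had 52.5, 51.2 and 55.6 CPM in simulated microgravity, against 78.6, 43.3 and 42.1 CPM at normal gravity. The simulated microgravity libraries lay between the normal gravity replicates, above replicates 2 and 3 and below replicate 1. Its log2 fold change was -0.04 (SE 0.26), and 0.32 (SE 0.06) without that replicate. The ratio of Higd2a to Higd1a in counts per kilobase was 3.88 to 4.95 in simulated microgravity and 3.94 to 4.95 at normal gravity, so their balance overlapped between groups. Higd1b and Higd1c, the other family members looked at, had 0 counts in all libraries, which allows up to 0.0154 CPM over the 194666094 counts.

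On the TPM scale, which allows levels to be compared between genes, the order differed between groups. In simulated microgravity it was Cox7a2 at 503 ± 93.3, Higd2a at 160.6 ± 3.73, Cox7a2l at 40.4 ± 4.97, Higd1a at 35.8 ± 5.77 and Cox7a1 at 8.35 ± 1.00 TPM (SD, n = 3). Cox7a2l exceeded Higd1a in each of these 3 libraries, although their SD ranges overlapped. At normal gravity it was Cox7a2 at 615 ± 176, Cox7a2l at 235 ± 66.9, Higd2a at 160.8 ± 35.1, Higd1a at 36.4 ± 3.78 and Cox7a1 at 5.51 ± 3.83 TPM. Cox7a2l exceeded Higd2a in each of these 3 libraries, although their SD ranges overlapped. Cox7a2l thus stood in the third place in simulated microgravity and in the second at normal gravity. The order there was the same without normal gravity replicate 1, at 514 TPM for Cox7a2, 196.5 for Cox7a2l, 140.6 for Higd2a, 34.3 for Higd1a and 3.32 for Cox7a1.

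Cox7a2l and Higd1a are both known as stress-linked genes. In human cells, the PERK and ATF4 branch of the stress response raises COX7A2L, and HIF-1 raises HIGD1A under low oxygen. Their promoters (RefSeq, GRCm38.p6, from 250 bases before to 50 after the start) are shown for that reason. The Cox7a2l window is chr17:83514284-83514583 and that of Higd1a chr9:121857747-121858046, both on the minus strand. Capitals mark matches on either strand to GCGCATGC (NRF-1 motif), CCGGAAG (ETS site of GABP), ACGTG and GCGTG (cores of the hypoxia response element) and TGATGNAA (C/EBP-ATF element of ATF4).
Cox7a2l: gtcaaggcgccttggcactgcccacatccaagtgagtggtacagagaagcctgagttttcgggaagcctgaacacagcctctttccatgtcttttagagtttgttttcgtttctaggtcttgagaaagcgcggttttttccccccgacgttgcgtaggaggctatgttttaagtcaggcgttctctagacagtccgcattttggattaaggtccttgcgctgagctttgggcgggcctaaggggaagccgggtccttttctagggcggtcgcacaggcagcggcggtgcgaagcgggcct
Higd1a: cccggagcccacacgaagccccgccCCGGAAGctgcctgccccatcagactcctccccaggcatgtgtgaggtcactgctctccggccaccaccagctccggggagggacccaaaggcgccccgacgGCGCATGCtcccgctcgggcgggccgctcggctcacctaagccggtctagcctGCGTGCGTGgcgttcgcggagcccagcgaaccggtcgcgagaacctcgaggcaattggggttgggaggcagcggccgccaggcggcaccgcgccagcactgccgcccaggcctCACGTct
The Cox7a2l window held none of the 5 motifs. That of Higd1a held 1 NRF-1 motif, 1 ETS site, 1 ACGTG and 2 overlapping GCGTG matches, and no ATF4 element. In windows not shown, Cox7a2 held 1 GCGTG, Cox7a1 held 2 GCGTG and 1 ACGTG, and Higd2a held 3 GCGTG. Matches to the hypoxia cores were thus not particular to Higd1a. Among 32851 promoter windows of this length, 2.71% held the NRF-1 motif, 8.86% the ETS site, 19.6% ACGTG, 32.4% GCGTG and 3.97% the ATF4 element. These are matches of letters and say nothing of binding.

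Of 16 tested genes of the ATF4 and PERK branch, 1 fell and 15 did not pass in edgeR (adjusted over all genes), where 1.52% of all 14509 genes passed (1.16% higher and 0.365% lower), and their median log2 fold change was -0.02 beside -0.02 over all genes. The gene that fell was Aldh1l2, a mitochondrial folate enzyme, at 6.42 ± 0.755 CPM in simulated microgravity and 20.2 ± 5.56 CPM at normal gravity (log2 fold change -1.66, SE 0.25, adjusted p = 0.0357). Slc7a5, an amino acid transporter, had -0.67 (adjusted p = 0.0558), the mitochondrial serine enzyme gene Shmt2 -0.51 (adjusted p = 0.0677) and the phosphatase regulator Ppp1r15a 0.78 (adjusted p = 0.0826). Without normal gravity replicate 1, where 30.8% of all genes passed (15.7% higher and 15.1% lower), 8 of the 16 were higher and 3 lower, and their median was 0.25 beside 0.01 over all genes. The higher ones included Cebpb at 1.59 (adjusted p = 0.000107), Nupr1 at 1.13 (adjusted p = 0.0045), Trib3 at 0.97 (adjusted p = 0.00132) and Ppp1r15a at 0.95 (adjusted p = 0.00135). The lower ones were Aldh1l2 at -1.86 (adjusted p = 0.000363), Slc7a5 at -0.63 (adjusted p = 0.0032) and Shmt2 at -0.48 (adjusted p = 0.00246). On leaving out any of the other 5 libraries, without a filter or with the replicate block, 0 genes of the list passed, so the call of Aldh1l2 was lost there. Atf4 itself had -0.25 with all libraries (adjusted p = 0.848) and did not pass without that replicate either (adjusted p = 0.554).

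Of 17 tested hypoxia genes, 1 fell and 16 did not pass in edgeR, where 1.52% of all genes passed (0.365% lower). Their median log2 fold change was 0.09 beside -0.02 over all genes. Pdk1, a kinase that restrains pyruvate dehydrogenase, had 38.4 ± 1.33 CPM in simulated microgravity and 62.9 ± 3.76 CPM at normal gravity (log2 fold change -0.71, SE 0.11, adjusted p = 0.0379). The mitophagy receptor gene Bnip3l had 0.58 (adjusted p = 0.0657), the stress gene Ndrg1 1.34 (adjusted p = 0.0792) and Epas1, which encodes HIF-2 alpha, 0.58 (adjusted p = 0.270). The call of Pdk1 was lost on leaving out any library but normal gravity replicate 1, without a filter and with the replicate block, where 0 genes of the list passed. When that replicate was left out, 5 of 17 were higher and 3 lower (15.7% and 15.1% of all genes), with Ndrg1 at 1.73 (adjusted p = 3.7e-05) on the rising side and Pdk1 at -0.73 (adjusted p = 0.0013) on the falling side.

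Cox7a2l was chosen for its fall, so a smaller difference in the subunits that the 5 genes work with says nothing by itself. Of 13 tested complex IV subunits, 0 passed in edgeR and in limma-voom and 1 was higher in DESeq2, and edgeR had 1 on each side, higher and lower, at unadjusted p below 0.05. Their log2 fold changes ran from -0.94 to 0.39 with a median of -0.20, beside -0.02 over all genes, and 10 of 13 were below 0. The lowest was Ndufa4, a complex IV subunit first assigned to complex I, at 66.2 ± 16.3 CPM in simulated microgravity and 127.0 ± 53.5 CPM at normal gravity (log2 fold change -0.94, SE 0.32, adjusted p = 0.229). The highest was mt-Co1, the mitochondrially encoded catalytic subunit, at 26860 ± 1345 CPM in simulated microgravity and 20495 ± 456 CPM at normal gravity (log2 fold change 0.39, SE 0.10, adjusted p = 0.116). mt-Co1 rose without normal gravity replicate 1 (0.38, adjusted p = 0.0024), together with Cox7c (0.19, adjusted p = 0.0395) and Cox5a (0.17, adjusted p = 0.0285), and 0 fell. These are 3 of 13 in a comparison in which 30.8% of all genes passed. The median of the 13 was 0.13 in it, beside 0.01 over all genes, and 4 of 13 were below 0. There Ndufa4 had -0.54 (adjusted p = 0.0752), Cox4i1 had -0.20 (adjusted p = 0.546) and Cox6a1 had 0.05 (adjusted p = 0.382). The isoform genes Cox4i2, Cox6b2, Cox7b2 and Cox8c had 0 counts throughout.

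Complex III, the other partner that COX7A2L binds, had no gene that passed either. Of 11 tested genes of its subunits and cytochrome c, 0 passed in edgeR, DESeq2 and limma-voom, and 1 was lower at an unadjusted p under 0.05 in edgeR. The log2 fold changes of all 11 lay under 0 (median -0.18), whereas 5 of 11 were below 0 without normal gravity replicate 1 and the median was 0.02. Cyc1, which encodes cytochrome c1, had -0.40 (SE 0.17, adjusted p = 0.310), the core subunit Uqcrc2 -0.19 (adjusted p = 0.411), Cycs -0.17 (adjusted p = 0.550) and Uqcr10 -0.30 (adjusted p = 0.609). Without that replicate Cyc1 (-0.21, adjusted p = 0.0268) and mt-Cytb (-0.22, adjusted p = 0.00502) were lower and Uqcrq (0.24, adjusted p = 0.0208) was higher, which is 3 of 11 beside 30.8% of all genes.

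**Figure D4:**
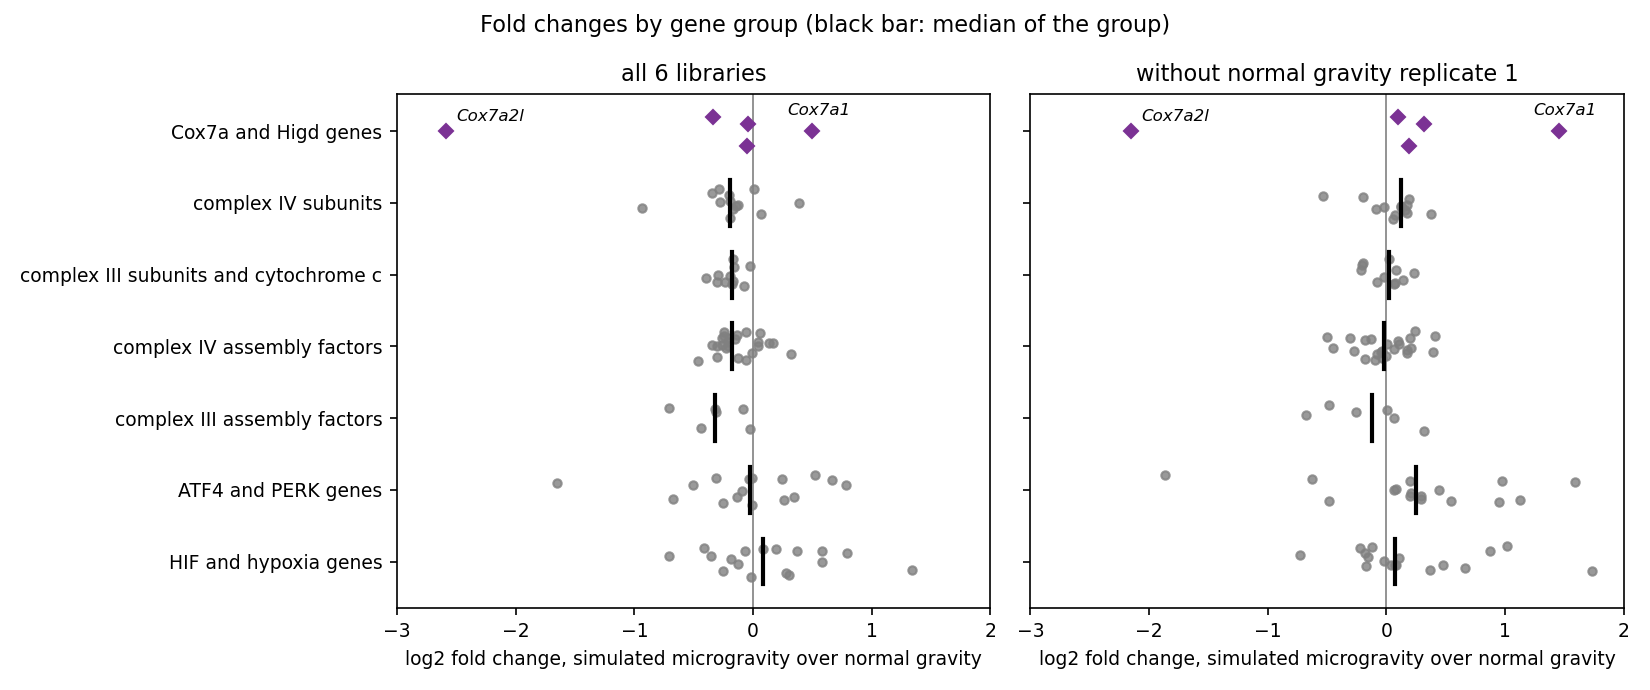
Log2 fold change, simulated microgravity over normal gravity, of the 5 Cox7a and Higd genes (purple) and of the tested genes of 6 related groups (grey, black bar at the group median), with all 6 libraries (left) and without normal gravity replicate 1 (right). Cox7a2l, chosen with its fall known, lies at -2.59 and -2.16, below every gene of the 6 groups in both panels. With the reads of Gm6969 added (not drawn) its values are -1.34 and -0.95, above those of Aldh1l2 (-1.66 and -1.86).

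Assembly factors gave 0 calls as well. Of 24 tested factors of complex IV, 0 passed in edgeR, DESeq2 and limma-voom. In edgeR 2 were lower at an unadjusted p under 0.05, and the median of the 24 was -0.18, beside -0.02 over all genes. Timm21, which escorts subunits during import, had 12.8 ± 0.278 CPM in simulated microgravity and 15.7 ± 0.280 CPM at normal gravity (log2 fold change -0.30, SE 0.11, adjusted p = 0.269). Coa6, a copper delivery factor, had -0.46 (adjusted p = 0.306), Cmc1 0.32 (adjusted p = 0.323) and Cox16 -0.31 (adjusted p = 0.604). Without normal gravity replicate 1 Timm21 (-0.31, adjusted p = 0.0339) and the mitochondrial mRNA factor Lrpprc (-0.50, adjusted p = 0.00174) were lower, and Cmc1 (0.39, adjusted p = 0.0394) was higher, 3 of 24 beside 30.8% of all genes. The median of the 24 was then -0.02, beside 0.01 over all genes. Of 6 factors of complex III, 0 passed in edgeR, DESeq2 and limma-voom, also at an unadjusted p under 0.05 in edgeR, with a median of -0.32. Lyrm7 had -0.70 (adjusted p = 0.362) at under 1 CPM, Ttc19 -0.32 (adjusted p = 0.518), Uqcc1 -0.32 (adjusted p = 0.531) and Uqcc2 -0.44 (adjusted p = 0.598). Ttc19 was lower without that replicate (-0.48, adjusted p = 0.0168), 1 of 6 beside 30.8% of all genes. The median of the 6 was then -0.12.

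Of the genes next to Cox7a2l, Eml4 had reads in every library and Kcng3 had almost none. Eml4, a microtubule-binding protein gene 21558 bases away on the plus strand, had 85.4, 80.1 and 79.4 CPM in simulated microgravity, against 58.1, 101.8 and 104.0 CPM at normal gravity (log2 fold change -0.11, SE 0.23, adjusted p = 0.875). Without normal gravity replicate 1 it was lower at -0.33 (adjusted p = 0.00748), where 15.1% of all genes were lower. Kcng3, a potassium channel gene on the other side, had no counts in 5 of the 6 libraries. No gene of the table overlaps Cox7a2l.

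The pattern of Cox7a2l over the 6 libraries was compared with that of 9587 named genes with a mean of at least 5 CPM, as a description. The 5 most alike were Icosl, an immune costimulatory ligand (Pearson r = 0.999 on log2 CPM), the chromatin protein gene Hmgb2 (0.995), Utp11 (0.994), Pclaf (0.993), a DNA replication factor, and Myh7b (0.992). Icosl had 10.0, 9.26 and 10.0 CPM in simulated microgravity, against 27.9, 19.6 and 19.1 CPM at normal gravity. All 5 share the low simulated microgravity values and the peak in normal gravity replicate 1, and 206 genes had r over 0.95. For Cox7a2 the most alike were Galns (0.993), Rnaseh2c (0.993), Ntan1 (0.992), Taf1b (0.991) and Vps72 (0.990). For Higd1a they were Ppp6c (0.990), Nmrk1 (0.989), Stk19 (0.987), Apoe (0.981) and Dexi (0.977). Among the 5 genes themselves, Higd1a and Higd2a had an r of 0.861 and Cox7a2 and Higd2a of 0.836, while Cox7a2l had 0.526 with Cox7a2, 0.310 with Higd1a, 0.237 with Higd2a and -0.27 with Cox7a1. These values rest on 6 libraries that share 1 library standing apart.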

How the data were processed

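The authors deposited a table of raw read counts per gene, whole numbers with no normalization visible in them, beside coordinates and lengths. The tools fastp 2.0 and HISAT2 2.1.0 are named, per the submitters' processing notes; counting tool, strand, build and annotation are not given in the sources used here. Coordinates equalled those of GENCODE M21 (GRCm38) for 97.1% of the gene IDs found in both. The table had 1 line without a gene, left out. The tests ran in edgeR 4.0.16 under R 4.3.3: filterByExpr (14509 genes, all 5 members included), TMM, quasi-likelihood test, two-sided, Benjamini-Hochberg adjustment over all tested genes, threshold 0.05. Each SE was obtained as the log2 fold change over the square root of the F statistic. TPM uses the table's gene lengths. Alternatives were DESeq2 1.42.0, limma-voom (limma 3.58.1), other scalings, no filter, a loess fit on gene length, a replicate block and leaving out each library. The limit given for genes at 0 counts covers counting error only, whereas SD and SE also include the spread between libraries. The procedure was tested on simulated data. Members and lists were chosen with earlier results of these data known. Genes named by rule are the 4 of each pathway list with the lowest p, those passing (up to 8), the 5 most alike in pattern, and neighbours; Gm6969, other marker genes named, Atf4 and genes named without normal gravity replicate 1 were chosen after their values were seen. Symbols on 2 gene IDs took the ID with more counts. Pet100, Ca9 and Tf were not matched. Sequences come from GENCODE M21 and RefSeq and were aligned with Biopython 1.88.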

Additional observations from a re-analysis of the deposited data

How the results depend on the processing

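The lower level of Cox7a2l kept its direction under all 14 alternatives, with log2 fold changes of -2.77 to -2.16 when 1 library was left out and -1.34 when the reads of Gm6969 were added, an alternative chosen after seeing the data. Cox7a1 ranged from 0.13 to 1.45, Cox7a2 from -0.52 to 0.10, Higd1a from -0.21 to 0.19 and Higd2a from -0.20 to 0.32 on leaving out 1 library. With the length trend removed, Cox7a2l had -2.42, Cox7a1 0.81, Cox7a2 -0.11, Higd1a -0.0015 and Higd2a 0.17. The share of Cox7a2l among Cox7a transcripts, -20.0 percentage points (simulated microgravity minus normal gravity), was -27.4 on raw counts, -16.0 with Gm6969 added, also chosen after seeing the data, and -21.0 to -19.0 with 1 library left out. The 221 genes called became 125 without a filter, 1230 in DESeq2 (714 higher, 516 lower), 706 with the length trend removed (438 higher, 268 lower) and 3 to 4559 on leaving out 1 library, where normal gravity replicate 1 gave the highest number and simulated microgravity replicate 1 the lowest. With the replicate number as a block, 0 genes passed in edgeR. Same-numbered libraries had deviations from their group means that correlated at r = -0.073, 0.025 and -0.090. Deviations within a group depend on each other, so these values cannot show whether same-numbered libraries were handled together. The sources used here do not give it. Calls among complex IV subunits were 1 in DESeq2 and 0 to 3 on leaving out 1 library, among complex III genes 0 to 3, among complex IV factors 0 to 3 and among complex III factors 0 to 1. The ATF4 list, with 1 call, had 2 with library size alone, 0 without a filter, 4 in DESeq2, 0 with the block, 4 with the length trend removed and 0 to 11 on leaving out 1 library. The hypoxia list, with 1 call, had 0 without a filter, 3 in DESeq2, 0 with the block, 3 with the length trend removed and 0 to 8 on leaving out 1 library. Each of the highest list counts came without normal gravity replicate 1, and the cause was not tested. Cox7a1 had as few as 20 reads in a library. Its SE was 0.58 with all libraries and 0.28 without normal gravity replicate 1.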
